A study of Canis lupus familiaris with 5 samples.

Results

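Integrins and the leukocyte adhesion molecules that bind with them were examined over 5 canine lymphoid tumour cell lines. The members were every probe set whose single annotated gene symbol was an integrin alpha or beta subunit, an intercellular adhesion molecule (ICAM), a selectin or a junctional adhesion molecule (JAM), together with SELPLG, ALCAM, VCAM1, PECAM1, CD44, CD58 and F11R. This rule found 91 of 42924 probe sets, which stand for 39 of 15115 genes. Each gene was read from its probe set of highest mean; 13 genes had 1 probe set and 26 had several. The symbol pattern also took in ITGB1BP1 and ITGB1BP2, cytoplasmic proteins that bind the tail of the beta-1 subunit and are not integrins themselves. No probe set carried CD58, ICAM3, JAM2 or ITGAD as its only symbol, so these genes were not analysed here.

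The lines were untreated, grown in RPMI with 10% FBS, and each was measured on 1 array. 17-71 (a B-lymphoid malignancy) and GL-1 (a B-cell leukemia) carry a B-cell label. CL-1 (a primitive a/b T-cell leukemia), CLGL-90 (a leukemia of large granular lymphocytes, LGL) and CLL-1390 (a primitive T-cell leukemia) carry a T-cell label. Each line is a single tumour line on 1 array. Spread within a label therefore holds differences between lines together with variation of culture, RNA and array, which cannot be told apart. Each p-value sets the difference between the labels against that spread.

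Integrins are paired receptors of 1 alpha and 1 beta chain that hold leukocytes to matrix and to other cells. They bind firmly only after signals inside the cell, carried by Rap1, talin and kindlin, open the extracellular part. ITGB2 pairs with ITGAL, ITGAM, ITGAX and ITGAD and binds the ICAMs; ITGB1 pairs with many alpha chains that bind fibronectin, laminin, collagen or VCAM1; ITGB7 pairs with ITGA4 for homing to gut and with ITGAE for epithelium. Selectins catch rolling leukocytes by sugars carried on SELPLG (PSGL-1), and CD44 binds hyaluronan.

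Values are log2 intensities. The 59 control probe sets for sequences that dogs lack peaked at 6.39 to 6.76 per array, and this peak (the control maximum) served as a guide to background. Array medians ran from 6.87 to 6.996, and CL-1 had both the lowest median and the lowest control maximum. The labels were checked against lineage markers. Of 9 B-lineage markers, 3 in 17-71 and 4 in GL-1 lay above the control maximum, against 2 to 4 in the T-labelled lines. CD79B, CD22 and BLK lay under it in every line, and PAX5 and FCRLA above it in every line. CD79A read 7.83 in GL-1 and 5.15 to 5.80 elsewhere, and EBF1 7.71 in GL-1 and 6.23 to 6.41 elsewhere. BLNK read 9.90 in CLGL-90, 8.12 in 17-71 and 5.35 to 5.68 elsewhere, and MS4A1 was highest in CLGL-90 (6.79). Of 11 T-lineage markers, 6 in CL-1, 10 in CLGL-90 and 7 in CLL-1390 lay above it, as did 4 in 17-71 and 7 in GL-1. CD3D, a chain of the T-cell receptor complex, read 13.51 in CLGL-90, 10.89 in CLL-1390, 9.78 in the B-labelled GL-1, 5.44 in the T-labelled CL-1 and 5.14 in 17-71. LCK, a T-cell kinase, read 10.65 in GL-1, and CD247, another chain of the complex, 11.16 in CL-1. A line's RNA is a bulk sample, in which fewer cells with a transcript and less transcript per cell cannot be told apart.

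The adhesion genes varied widely between the lines. Of the 39 genes, 13 (33.3%) reached log2 8 in at least 1 line and spanned at least log2 2 from the lowest to the highest line; over all 15115 genes the share was 12.5%. These 13 were ITGA2, ITGA4, ITGA5, ITGA6, ITGAV, ITGAX, ITGB1, ITGB2, ITGB7, ICAM1, ICAM2, SELPLG and CD44. At the other end, 14 of the 39 (35.9%) spanned less than log2 1, against 62.7% of all genes. No member passed the test between B-labelled and T-labelled lines. The count of 13 was 10 without CL-1 (8.68% of all genes), 11 without 17-71 or without GL-1, 12 without CLL-1390 and 13 without CLGL-90. F11R lay just outside the range limit, at 1.999, and ITGA5 just inside it, at 2.21. ITGA2, at 8.05, was just over the level limit and ALCAM, at 7.85, just under it.

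**Figure D1:**
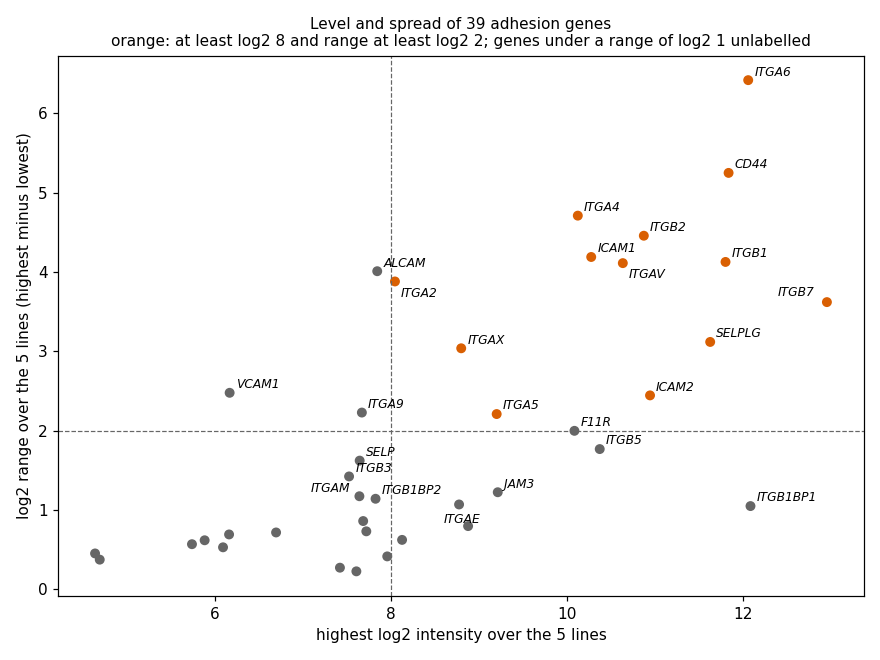
Each point is 1 of the 39 adhesion genes, with the highest log2 intensity over the 5 lines on the x axis and the log2 range between highest and lowest line on the y axis; dashed lines mark log2 8 and a range of log2 2. The 13 orange genes lie beyond both limits, with ITGA6 (range 6.42) and CD44 (5.25) spanning most, while VCAM1, ITGA9 and ALCAM varied by over log2 2 at levels under log2 8.

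ITGB2, the common beta chain of the leukocyte integrins, was high in every line but CL-1. It read 10.41 in 17-71, 10.88 in GL-1, 10.17 in CLGL-90, 10.42 in CLL-1390 and only 6.42 in CL-1. CL-1 thus lay 3.75 below the nearest other line, at the level of its own control maximum (6.39). A further probe set of ITGB2 showed the same order at the extremes, with 6.71 in CL-1 and 8.35 to 10.10 elsewhere, and another was flat (3.57 to 4.17). The low value of CL-1 made up nearly the whole range of this gene.

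ITGAX (CD11c), an alpha partner of ITGB2 typical of dendritic cells and macrophages, stood out in 17-71. It read 8.80 there, against 6.24 in GL-1, 5.76 in CL-1, 6.74 in CLGL-90 and 6.44 in CLL-1390. The 4 lower values all lay under the control maximum of their arrays, so the gap of 2.06 is a difference from background. ITGAX has 1 probe set and no second measurement. In the RefSeq gene order it lies directly beside ITGAM, the alpha chain of CR3, whose probe set read 6.77 in 17-71 and was highest in CLL-1390 (7.65), with a range of 1.17. The neighbouring genes therefore did not share a highest line. ITGAL (CD11a), the alpha chain of the lymphocyte integrin LFA-1, read 6.83 to 7.69 and varied by 0.86, which shows neither presence nor absence.

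ICAM1, a ligand of the ITGB2 integrins that inflammatory signals induce, was highest in 17-71. It read 10.28 in 17-71, 7.54 in GL-1, 6.09 in CL-1, 6.70 in CLGL-90 and 6.77 in CLL-1390. Both B-labelled lines were above every T-labelled line, and the T-labelled values of CL-1 and CLGL-90 lay under their control maxima. Its second probe set gave 8.96 in 17-71 and 6.62 to 7.39 in the others, again with 17-71 highest and CL-1 lowest, and lay above the control maximum in all 5 lines. ICAM5, the next gene to ICAM1 in the RefSeq order and known from neurons, stayed between 5.17 and 5.74, under the control maximum in every line.

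ICAM2, the ICAM that resting leukocytes and endothelium carry, showed the opposite order. It read 9.58 in 17-71 and 8.50 in GL-1, against 10.71 in CL-1, 10.95 in CLGL-90 and 9.72 in CLL-1390. The groups did not overlap, although 17-71 and CLL-1390 were close. The second probe set placed 17-71 (9.43) and CLL-1390 (9.46) nearly level and kept GL-1 lowest (8.49) and CLGL-90 highest (10.75). CL-1, low in the receptor chain ITGB2, was thus among the highest in the ligand gene ICAM2 and the lowest in ICAM1.

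**Figure D2:**
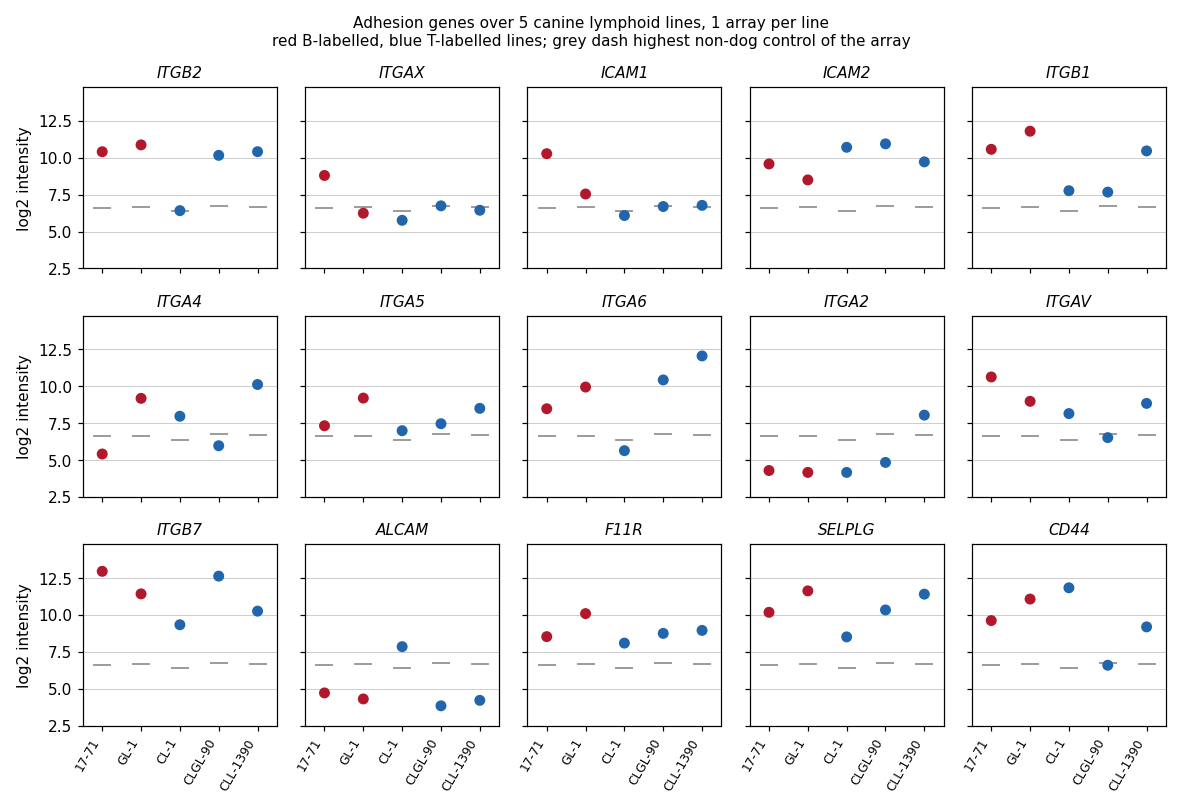
Each panel is 1 gene, with the 5 lines on the x axis and log2 intensity on the y axis; a point is 1 array, red for B-labelled and blue for T-labelled lines, and the grey dash is the highest non-dog control of that array. ITGB2 and ITGA6 were low in CL-1, ITGAX and ICAM1 were high in 17-71, ALCAM was high in CL-1, ITGA2 in CLL-1390, and CD44 was low in CLGL-90.

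ITGB1, the beta chain of the receptors for fibronectin, laminin and collagen, split the lines into 3 high and 2 low. GL-1 read 11.80, 17-71 10.57 and CLL-1390 10.47, while CL-1 read 7.77 and CLGL-90 7.67. The low pair lay 0.10 apart, and all 5 values were above the control maximum. Another probe set read 5.97 to 7.23, with CL-1 highest, and did not show this pattern; CLGL-90 was lowest in both.

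ITGA4, the alpha chain of the VCAM1 and fibronectin receptor VLA-4 and of the gut-homing receptor, was low in a different pair. It read 5.41 in 17-71 and 5.97 in CLGL-90, both under the control maximum. The other lines read 10.13 (CLL-1390), 9.19 (GL-1) and 7.97 (CL-1). Its 1 probe set spanned 4.71. Neither label held together, since 1 B-labelled and 1 T-labelled line were low.

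ITGA5, the alpha chain of the classical fibronectin receptor, was higher in GL-1 (9.20) and CLL-1390 (8.51) than in 17-71 (7.33), CL-1 (6.99) and CLGL-90 (7.47). Its second probe set showed the same 2 lines more clearly, at 9.58 and 8.61 against 5.59 to 6.32. ITGA4 and ITGA5 were therefore both high in GL-1 and CLL-1390.

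ITGA6, the alpha chain of laminin receptors, had the largest range of all members. It read 12.06 in CLL-1390, 10.43 in CLGL-90, 9.95 in GL-1, 8.48 in 17-71 and 5.64 in CL-1. On this probe set CL-1 lay under its control maximum and 2.84 below the next line, while 2 of the further ones lay above it in CL-1. All 3 further probe sets were highest in CLL-1390, and 2 of the 3 were lowest in CL-1, with ranges of 2.74 to 4.46; in the remaining one 17-71 (7.43) lay under CL-1 (7.64).

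ITGA2, the collagen-binding alpha chain known from platelets, appeared in CLL-1390 alone. It read 8.05 there and 4.17 to 4.84 in the other 4 lines, all far under the control maximum. A second probe set was also highest in CLL-1390 (6.20 against 3.09 to 3.27), but under the control maximum of that array (6.70). Another stayed between 3.34 and 3.63 in all lines. ITGA1, which lies near ITGA2 in the RefSeq order with 1 gene between them and also binds collagen, stayed at 4.32 to 4.70.

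ITGAV, the alpha chain that pairs with several beta chains to bind vitronectin and fibronectin, was highest in 17-71 (10.64). GL-1 (8.98), CLL-1390 (8.84) and CL-1 (8.15) followed, and CLGL-90 (6.52) lay under its control maximum. Its second probe set kept 17-71 highest (8.94) and CLGL-90 lowest (5.42), while the other 3 varied by 0.41 to 1.19. The widest of these 3 had CLGL-90 highest, at 6.90, just above its control maximum of 6.76. ITGA9, a relative of ITGA4, read 7.67 in 17-71 and 5.44 to 5.67 in the other lines, which were under the control maximum. It did not reach log2 8 and is given with its values because it varied by 2.23.

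The remaining alpha chains gave little to read. ITGA3, ITGA7, ITGA8, ITGA10, ITGA11 and ITGA2B varied by 0.42 to 0.80, whatever their level. ITGA2B, the platelet fibrinogen receptor chain, read 7.51 to 8.13. Of the 17 alpha chains on the array, 6 reached log2 8 and spanned log2 2.

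ITGB7 was highest in 17-71 (12.95) and CLGL-90 (12.63), followed by GL-1 (11.43), CLL-1390 (10.25) and CL-1 (9.33). All 3 of its probe sets had 17-71 highest and CL-1 lowest, with ranges of 2.54 to 3.62. The 2 lines with the most ITGB7 transcript were those in which its partner ITGA4 lay under the control maximum. ITGAE (CD103), the other partner of ITGB7 and a marker of intraepithelial T cells, varied by 1.07 and was highest in CLGL-90 (8.78). One further probe set of ITGAE, of lower mean, was highest in CLL-1390 (7.48) instead. MADCAM1, the gut ligand of the ITGA4 and ITGB7 pair and no member of the set, read 8.45 to 9.14.

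Among the other beta chains, ITGB5, which pairs with ITGAV, read 8.61 in 17-71 and 9.31 to 10.37 in the others. Its range of 1.77 kept it outside the limit, and 2 of its 4 further probe sets varied by over log2 1, both lowest in 17-71. The line with the most ITGAV thus had the least ITGB5. ITGB3, the platelet and osteoclast chain, read 6.10 to 7.53 and was highest in CLL-1390. ITGB4, ITGB6 and ITGB8 varied by 0.23 to 0.45, and ITGB8 lay under the control maximum in every line. Of the 8 beta chains, 3 reached log2 8 and spanned log2 2. ITGB1BP1 read 11.04 to 12.09 and ITGB1BP2 6.69 to 7.83.

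ALCAM (CD166), an immunoglobulin-family molecule that binds CD6 on T cells, was found in CL-1 alone. It read 7.85 in CL-1 against 4.71 in 17-71, 4.30 in GL-1, 3.84 in CLGL-90 and 4.21 in CLL-1390. Its second probe set read 7.38 in CL-1 and 3.81 to 3.998 elsewhere. Only CL-1 lay over its control maximum, so the gap of 3.14 is a difference from background. VCAM1, the ligand of VLA-4, read 6.17 in 17-71 and 3.69 to 3.98 in the other lines; it stayed under the control maximum everywhere, and its second probe set varied by 0.86.

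PECAM1 (CD31), carried by endothelium, platelets and leukocytes, lay under the control maximum in every line (5.47 to 6.17). One of its 3 further probe sets, of lower mean, read 6.60 in 17-71 against 4.16 to 4.83. That value too did not pass the control maximum of 17-71. F11R (JAM-A) was highest in GL-1 at 10.09, against 8.53 in 17-71, 8.09 in CL-1, 8.75 in CLGL-90 and 8.95 in CLL-1390. Its second probe set spanned 2.28, with GL-1 at 9.96 and the others at 7.68 to 8.57. JAM3, which binds ITGAM, read 7.99 to 9.22, and its second probe set spanned 2.55, with GL-1 (7.14), CLL-1390 (7.33) and CL-1 (6.20) above 17-71 (4.78) and CLGL-90 (4.93).

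SELPLG, the main selectin ligand of leukocytes, was found in all lines and was lowest in CL-1. It read 10.17 in 17-71, 11.63 in GL-1, 8.51 in CL-1, 10.34 in CLGL-90 and 11.41 in CLL-1390. All 3 further probe sets had GL-1 highest and CL-1 lowest, with ranges of 1.19 to 3.10. SELE, the endothelial selectin, stayed under the control maximum (5.57 to 6.10). SELP, the selectin of platelets and endothelium, read 7.65 in CLL-1390 and 6.02 to 6.33 elsewhere, the latter under the control maximum.

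CD44, the hyaluronan receptor, was low in CLGL-90 and high in CL-1. It read 11.84 in CL-1, 11.07 in GL-1, 9.62 in 17-71, 9.19 in CLL-1390 and 6.59 in CLGL-90. CLGL-90 lay under its control maximum (6.76) and 2.60 below the next line. The second probe set gave the same order from 11.30 to 6.52, and another varied by 0.79. CL-1 was therefore highest in CD44 and ALCAM and lowest in ITGB2, ITGA6, SELPLG and ITGB7.

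Both chains of a receptor must be present for it to reach the surface, so partner genes that both varied as above were read together. ITGA4 and ITGB1 were both at log2 8 or more in GL-1 and CLL-1390, as were ITGA5 and ITGB1, and ITGA4 and ITGB7. ITGA6 and ITGB1, and ITGAV and ITGB1, reached log2 8 together in 17-71, GL-1 and CLL-1390. ITGAX and ITGB2 did so in 17-71 only, and ITGA2 and ITGB1 in CLL-1390 only. CL-1 and CLGL-90 had no pair among these 7 with both genes at log2 8. Most of the 7 hold ITGB1, which read 7.77 in CL-1 and 7.67 in CLGL-90. Pairs outside the 7 did reach log2 8 together: ITGAV (8.15) and ITGB5 (10.14) in CL-1, ITGAE (8.78) and ITGB7 (12.63) in CLGL-90. Above the control maximum instead of log2 8, CL-1 had 4 of the 7 pairs and CLGL-90 had 2. With any probe set of a gene above it, CL-1 had 5 and CLGL-90 had 3. Proteins were not measured.

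Over the 13 genes beyond both limits, CL-1 was the lowest line for 8 and the highest for 1. CLGL-90 was lowest for 3 and highest for 1, whereas CLL-1390 was highest for 3 and lowest for none. 17-71 and GL-1 were each highest for 4 and lowest for 1. With arrays centred on their medians, or quantile normalized again, CL-1 was lowest for 7 and GL-1 for 2. CLGL-90 had 6 of the 13 at or under its control maximum, CL-1 had 4, 17-71 and GL-1 had 2 each, and CLL-1390 had 1. Where every probe set of a gene had to lie at or under it, CLGL-90 had 4 and CL-1 had 2, and the other lines kept their counts. Lines under the control maximum have no order among themselves. For 9 of the 13 all 4 other lines lay above it, and of these 9 CL-1 was lowest for 5 (ITGA5, ITGA6, ITGB2, ITGB7 and SELPLG), CLGL-90 for 3 (CD44, ITGAV and ITGB1) and GL-1 for 1 (ICAM2).

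Counted over all 39 members, 4 (10.3%) stood at least log2 2 above every other line in 17-71, against 0.754% of all genes. These were ICAM1, ITGAX, ITGA9 and VCAM1, of which VCAM1 (6.17) lay under the control maximum of 17-71 (6.60). In CL-1 there was 1 such member (ALCAM; 0.959% of all genes) and in CLL-1390 also 1 (ITGA2; 0.404%). GL-1 and CLGL-90 had none (0.337% and 0.668% of all genes). At least log2 2 below every other line were ITGB2 and ITGA6 in CL-1 (0.37% of all genes) and CD44 in CLGL-90 (0.159%). No member was so low in 17-71 (0.232%), GL-1 (0.139%) or CLL-1390 (0.238%). Since a line is 1 array, these counts have no replicate behind them.

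By their adhesion genes GL-1 and CLL-1390 were the most alike of the 10 pairs of lines. Their mean absolute difference over the 39 genes was 0.585, and 2 genes (5 or more in each other pair) were log2 2 or more apart. 17-71 and CL-1 were the least alike, at 1.24 with 12 genes apart. Over all genes GL-1 and CLL-1390 were also the closest pair (0.445), 17-71 and CL-1 differed by 0.610, and CL-1 and CLGL-90 (0.638) were the furthest apart. The closest pair joins a B-labelled and a T-labelled line.

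The comparison of labels asked whether adhesion genes separated B-labelled from T-labelled lines. In limma, with Benjamini-Hochberg adjustment over 14162 tested genes, 0 of the 34 members tested passed, as did 1 gene in all (0.00706%). The other 5 members (ALCAM, ITGA1, ITGA2, ITGB8 and VCAM1) reached log2 5 on fewer than 2 arrays and were not tested. At an unadjusted p under 0.05 there were 2 members, ICAM1 and ICAM2, or 5.88% of 34 against 3.52% of all genes. Over probe sets 5 of 36661 were called (0.0136%) and none of them was a member's.

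ICAM1 averaged 8.91 ± 1.93 (SD, n = 2 lines) in the B-labelled and 6.52 ± 0.38 (n = 3) in the T-labelled lines. The difference was 2.39 (SE 0.85, limma adjusted p = 0.9999), and it was 1.02 without 17-71 and 3.76 without GL-1. ICAM2 averaged 9.04 ± 0.77 against 10.46 ± 0.65, a difference of -1.42 (SE 0.52, limma adjusted p = 0.9999) that was -0.88 without GL-1. ITGB1 differed by 2.55 (SE 1.02) and ITGAV by 1.97 (SE 0.87), each with both B-labelled lines over every T-labelled line. This rests on the probe set of highest mean: with the mean of probe sets the differences were 1.24 and 0.75, and on the second probe set of each gene the labels overlapped. Without 17-71 the difference of ITGAV was 1.14, and without CLGL-90 it was 1.31. ITGB2 (1.64, SE 1.34), ITGB7 (1.45, SE 1.12), ITGAX (1.21, SE 0.83) and CD44 (1.14, SE 1.62) overlapped between the labels. Without CL-1 the difference of ITGB2 was 0.35. That of ITGB7 was 0.69 without 17-71, 0.75 without CL-1, 2.22 without GL-1 and 2.40 without CLGL-90. The difference of CD44 turned to -0.17 without CLGL-90 and that of ITGAX to -0.073 without 17-71.

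Groups did not overlap for 5 of 34 members (14.7%; 15.4% of all genes tested), a share like that of the array as a whole. ICAM1, ITGB1, ITGAV and ITGA9 were higher in both B-labelled lines (11.8%; 6.12% of all genes) and ICAM2 was lower (2.94%; 9.26%). The difference of ITGA9 (1.14, SE 0.61) came from 17-71, since GL-1 (5.67) lay just over the T-labelled lines (5.44 to 5.59). The median difference over the 34 members was -0.01, with 17 higher and 17 lower in the B-labelled lines, and over all genes tested -0.03. With a line left out fewer values must separate, and non-overlapping members numbered 9 without 17-71 (36.2% of all genes), 15 without GL-1 (40.2%), 16 without CL-1 (39.5%), 7 without CLGL-90 (28.5%) and 8 without CLL-1390 (25.6%).

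**Figure D3:**
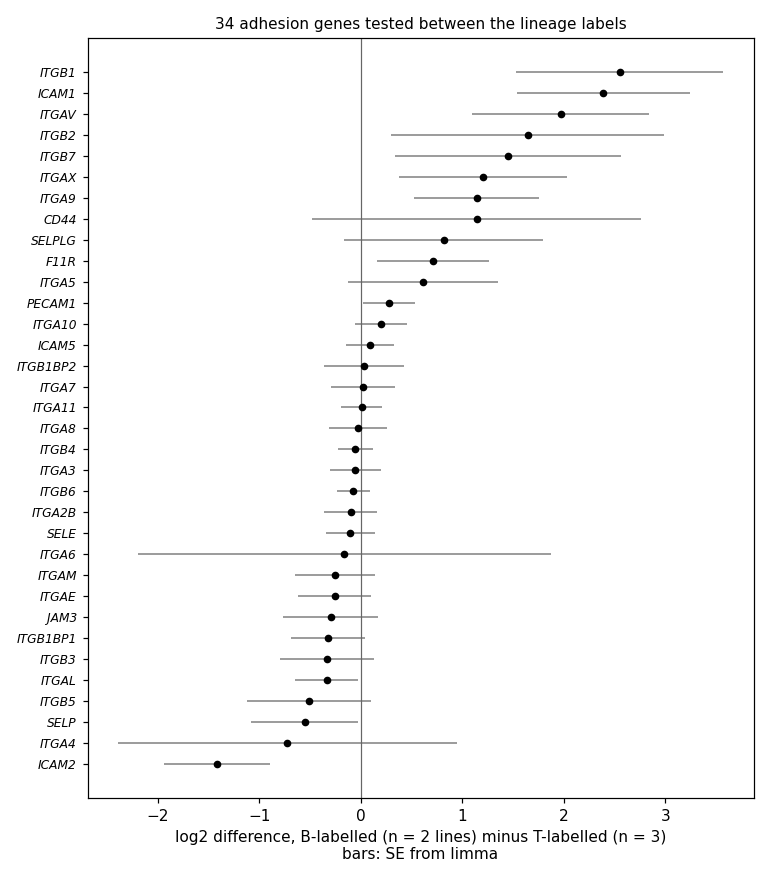
Each row is 1 of the 34 tested adhesion genes, and the x axis is the log2 difference of the B-labelled mean (n = 2 lines) minus the T-labelled mean (n = 3 lines), with bars of 1 SE from limma. ITGB1 (2.55) and ICAM1 (2.39) lie furthest right and ICAM2 (-1.42) furthest left, and none passed after adjustment.

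Markers of myeloid cells were read beside the members. Both B-labelled lines lay above every T-labelled line for 6 of 12, beside 6.12% of all genes tested, and the other markers did not separate the labels. Of 12 myeloid markers on the array, 10 in 17-71 and 9 in GL-1 lay above the control maximum, against 3 to 5 in the T-labelled lines. Their summed linear intensity was 9880 to 15343 in the B-labelled and 922 to 1171 in the T-labelled lines. CD68, a macrophage lysosomal protein, read 11.76 in 17-71, where ITGAX and ICAM1 were also highest, and 6.91 to 7.73 in the others. Other markers had another highest line. FCGR1A read 11.10 in GL-1 and 7.72 in 17-71, and MRC1 was highest in the T-labelled CLGL-90 (7.59). Of the 12, 1 (LYZ) passed in limma after adjustment and 6 had an unadjusted p under 0.05, beside 3.52% of all genes tested. All 6 were higher in the B-labelled lines. MPO lay under the control maximum in all lines, and CSF1R (6.53 to 6.72) and CD14 (7.95 to 8.26) hardly varied. The part of these markers in the adhesion results was not tested.

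Platelet and endothelial markers were read beside ITGA2, SELP and ITGB3, which were highest in CLL-1390, ITGB3 by little (7.53 against 7.04 in GL-1). Other members known from platelets or endothelium did not stand out there. ITGA2B read 8.13 in CLL-1390 and 8.12 in CLGL-90, and PECAM1 and SELE lay under the control maximum in every line. Of 16 such markers, 7 lay above the control maximum in CLL-1390 and 6 to 8 in the other lines. Their summed linear intensity was 5969 in CLL-1390 and 2291 to 3385 in the others. Their median did not differ in this way, at 6.64 in CLL-1390 and 6.05 to 6.66 in the others. ESAM, an endothelial and platelet adhesion molecule, read 10.99 in CLL-1390 and 5.51 to 5.89 elsewhere, and TBXAS1, thromboxane synthase, 10.83 against 10.15 in GL-1 and less in the others. The defining markers VWF, PPBP, GP1BA, GP6, CLEC1B, TEK and PLVAP lay under the control maximum in every line, whereas CDH5, TIE1, CLDN5, EGFL7 and GP9 lay above it in every line. The part of this list in the results of ITGA2, SELP and ITGB3 was not tested.

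Of the matrix ligands of the integrins, 3 of 22 lay beyond both limits (13.6%, beside 12.5% of all genes): FN1, LAMC1 and FBN1. FN1, fibronectin, read 14.01 in CL-1 and 11.002 in CLL-1390, against 7.24 in GL-1, 5.34 in 17-71 and 4.66 in CLGL-90. CL-1 had thus the most fibronectin transcript and the least ITGA5. LAMC1, a laminin chain, read 8.90 in CL-1 and 8.43 in GL-1, against 6.48 to 7.50, and FBN1, fibrillin, 8.18 in CL-1 against 5.07 to 6.22. Of 21 tested, 0 passed in limma and 1 had an unadjusted p under 0.05, beside 3.52% of all genes tested. This was SPP1, osteopontin, at 3.67 and 3.82 in the B-labelled lines and 5.29 to 7.10 in the T-labelled. SPP1 lay above the control maximum in CL-1 and CLL-1390 only. Of 12 fibroblast and epithelial markers, 2 lay above the control maximum in CL-1 and 3 or 4 in the others, with a summed linear intensity of 746 in CL-1 and 1362 to 6086 elsewhere. COL1A1, PDGFRA, DCN, LUM, EPCAM, KRT8 and CDH1 lay under the control maximum in every line. KRT18 read 11.55 in CLGL-90, 9.40 in 17-71 and 5.83 to 6.26 in the others. THY1 read 11.19 in CLGL-90, 9.98 in CLL-1390 and 9.28 in GL-1, against 5.93 in 17-71 and 5.61 in CL-1.

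Of the partners and counter-receptors on the cell surface, 10 of 23 lay beyond both limits (43.5%, beside 12.5% of all genes). CD2, a T-cell adhesion receptor, read 12.59 in CLGL-90 and 11.42 in 17-71, against 5.71 to 6.30 in the others. CD48, which binds CD2 in several species, read 13.17 in 17-71, 11.38 in GL-1 and 12.68 in CLGL-90, against 5.10 in CL-1 and 6.27 in CLL-1390. CD99, which guides leukocytes through endothelium, read 6.82 in 17-71 and 9.84 to 12.92 in the others. CD74, the class II invariant chain, read 13.74 in 17-71 and 12.67 in CL-1, against 5.66 to 7.62. Outside the naming rule, and chosen after their values were seen, were 3 more genes of this list. CD226, which works together with LFA-1, read 9.54 in CL-1 and 6.17 to 6.39 elsewhere. CD6, the receptor of ALCAM, read 8.66 in CLL-1390 and 6.93 to 7.18 elsewhere, so ALCAM and CD6 were not high in the same line. CD34 read 10.27 in CLL-1390 and 6.89 to 7.41 elsewhere. Of 23 tested, 0 passed in limma and 1 had an unadjusted p under 0.05, beside 3.52% of all genes tested. This was the tetraspanin CD9 (10.94 and 9.33 against 6.95 to 9.10).

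**Figure D4:**
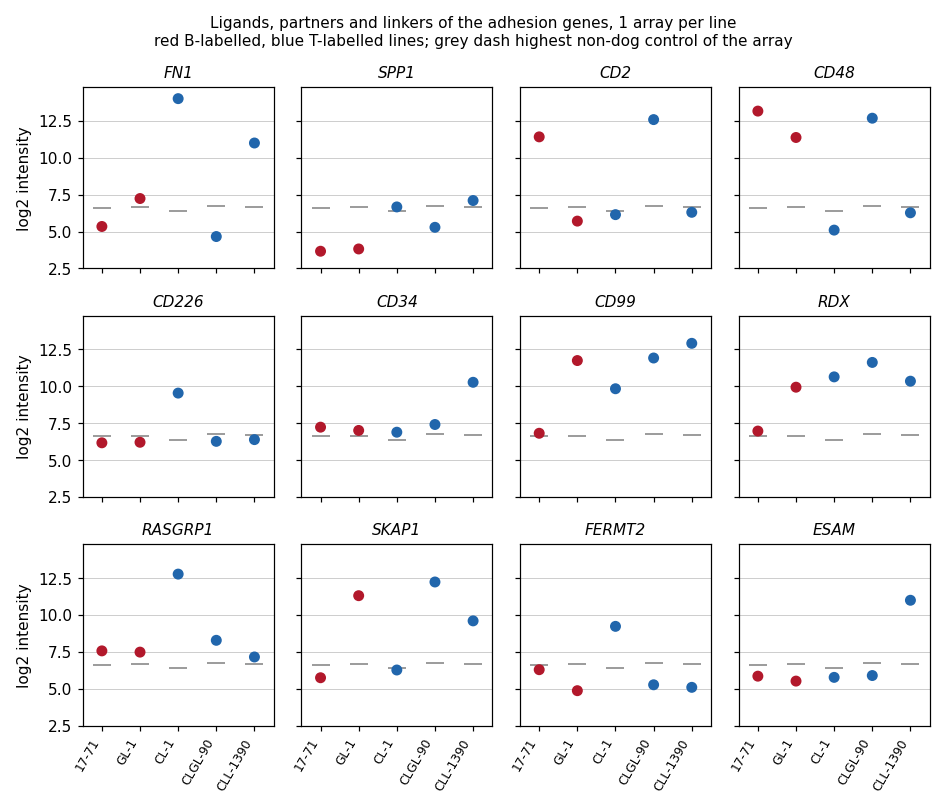
Each panel is 1 ligand, partner or linker gene, with the 5 lines on the x axis and log2 intensity on the y axis; a point is 1 array, red for B-labelled and blue for T-labelled lines, and the grey dash is the highest non-dog control of that array. FN1, CD226, RASGRP1 and FERMT2 were highest in CL-1, ESAM and CD34 in CLL-1390, and RDX was lowest in 17-71.

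The inside machinery that activates integrins also differed by line, with 10 of 22 genes beyond both limits (45.5%, beside 12.5% of all genes). RASGRP1, which activates Ras and Rap1 after antigen receptor signals, read 12.77 in CL-1 and 7.15 to 8.28 elsewhere. SKAP1, an adaptor that brings Rap1 to the membrane in T cells, read 12.23 in CLGL-90, 11.30 in GL-1 and 9.59 in CLL-1390, and lay under the control maximum in 17-71 (5.74) and CL-1 (6.26). FERMT2, the kindlin of adherent tissues, read 9.22 in CL-1 and 4.86 to 6.29 elsewhere. FERMT3, the kindlin of blood cells, read 10.19 to 11.62 in all lines, and TLN1, talin, 8.95 to 10.41. CYTH1, a cytohesin that binds ITGB2, read 10.64 in CL-1 and 6.996 to 7.996 elsewhere. Of 22 tested, 0 passed in limma and 2 had an unadjusted p under 0.05, beside 3.52% of all genes tested. Both were higher in the B-labelled lines: FYB1 (difference 2.11) and SKAP2 (1.70), adaptors of this machinery. ITGB1BP1 and ITGB1BP2 belong to this list as well as to the members, and SELPLG to the list of partners.

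Focal adhesion and signalling genes gave 5 of 24 beyond both limits (20.8%, beside 12.5% of all genes). Of 24 tested, 0 passed the threshold or had an unadjusted p under 0.05 in limma. PTK2, focal adhesion kinase, read 8.08 in CL-1 and 5.54 to 6.67 elsewhere. DOCK2 (5.68 in CL-1, 7.22 to 8.59 elsewhere) and DOCK8 (7.09 in CL-1, 8.11 to 9.37 elsewhere), exchange factors for Rac and Cdc42 in leukocytes, were lowest in CL-1.

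Enzymes that build the selectin-binding sugars gave 3 of 15 beyond both limits (20%, beside 12.5% of all genes). GCNT1, which starts the branch on which the sugar is built, read 10.60 in GL-1 and 7.50 in CL-1, the lines with the most and the least SELPLG. ST3GAL6, a sialyltransferase, read 11.74 in CLGL-90 and 10.51 in 17-71, against 7.58 in CLL-1390 and 7.75 in CL-1. FUT8, a core fucosyltransferase of other glycans, read 7.81 in CL-1 and 9.84 to 11.43 elsewhere. FUT7, the fucosyltransferase that completes the sugar, read 6.26 to 6.68 and lay above the control maximum in 17-71 (6.65) only. Its small variation is thus near background and does not show steady expression. Of 14 tested, 0 had an adjusted p under 0.05 or an unadjusted p under 0.05 in limma.

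Of the linkers and sheddases, 3 of 9 lay beyond both limits (33.3%, beside 12.5% of all genes). RDX, radixin, which ties CD44 and the ICAMs to actin, read 6.97 in 17-71 and 9.94 to 11.62 in the others. MSN, moesin, read 8.70 in CLGL-90 and 9.12 to 10.72 elsewhere, and MMP9, a protease that sits on CD44, 8.84 in CLGL-90 and 6.38 to 7.15 elsewhere. Of 9 tested, 0 passed in limma and 1 had an unadjusted p under 0.05, beside 3.52% of all genes tested. This was EZR, ezrin, at 13.45 and 13.01 against 12.22 to 12.85.

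Further probe sets bore on how far single values can be trusted. The 26 genes with several had 52 further probe sets, of which 28 varied by at least log2 1; 22 of these had the same highest line as the representative and 21 the same lowest line. For the 11 of these genes beyond both limits the counts were 22, 17, 15 and 14. The other 24 further probe sets varied by less than log2 1, among them 1 of CD44, 1 of ITGB2, 1 of ITGA2 and 2 of ITGAV. ITGA4 and ITGAX rest on 1 probe set each.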

How the data were processed

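Biotin-labelled RNA of 5 lines (RIN above 9, per the labels) was hybridised to canine Affymetrix arrays. Values are log2 intensities of probe sets as deposited, which the authors obtained by GCRMA according to the submitters' processing notes. No version of GCRMA is given in the sources used here. Of 43035 probe sets, 111 were Affymetrix controls, 439 carried several symbols and 13231 carried none; these did not enter gene values. RefSeq's gene table (UU_Cfam_GSD_1.0), in which 36 of the 39 members' gene IDs were found, gave gene order only.

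Features at log2 5 or more on 2 or more arrays entered limma 3.58.1 (R 4.3.3, lmFit and eBayes with a prior df of 1.74 and 3 residual df), which compared the labels two-sided. P-values were adjusted by Benjamini-Hochberg over all genes or all probe sets at 0.05. The fit was also run on simulated data with a shift larger than any member's difference. That run does not show whether differences of the members' size could be found. Single lines have 1 array and were described without a test, and the number of arrays limits precision. Full values are given for members that reached log2 8 and spanned log2 2 in any probe set, and for ICAM1, ITGAX and ALCAM. Each companion list has up to 4 named genes, those of largest range among genes reaching log2 8, and other companion or marker genes named were chosen after their values were seen. For 1 focal adhesion gene that this rule would name, the values are not reported here. Members and lists were chosen with earlier results of these data known. Alternatives covered the filter, normalization, a floor, the prior, the grouping of CLGL-90, the choice of probe set and leaving out each line.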

Additional observations from a re-analysis of the deposited data

How the results depend on the processing

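No member passed in limma under any of the 14 alternatives run (lowest adjusted p 0.198 among the named members). The count of genes called in all was 1 and became 9 with the filter at log2 7, 8 after quantile normalization again, 8 with centred arrays, 10 with an intensity trend and robust prior, 0 with CLGL-90 set apart, 3 with the mean of a gene's probe sets and 11 with the most variable probe set. Probe sets called were 5 and became 3 without a filter, 14 at log2 7, 3 with centred arrays, 15 with the trend and 0 with CLGL-90 set apart as a group. Without any 1 line both counts were 0 (474 to 769 genes at an unadjusted p under 0.05). Members at an unadjusted p under 0.05 were 2 and became 1 after quantile normalization, 1 with CLGL-90 set apart and 1 with the mean of probe sets, and 0 to 4 over the fits without 1 line. Members without overlap ran from 7 to 16 over those fits, and the median difference from -0.12 to 0.14.

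Of 181 differences of named members, 170 kept their direction and 11 turned. With CLGL-90 set apart CD44 stood at -0.17 and ITGA6 at 0.37. Over the fits without 1 line CD44 ran from -0.17 to 2.46, F11R from -0.069 to 1.49, ITGA4 from -2.61 to 1.16, ITGA5 from -0.33 to 1.55, ITGA6 from -2.03 to 1.18 and ITGAX from -0.073 to 2.49. Members beyond both limits, 13 on the deposited values, were 10 to 13 without 1 line, an alternative chosen after seeing the data, as were the counts over every probe set and over genes with the 4 other lines above the control maximum. Of 75 gaps between a named member's extreme line and the next, 67 stayed within 1.5 times of their value, 8 were smaller with the mean of probe sets, and none turned. No paired analysis was possible because each line is a sample of its own.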
